A study of Mus musculus with 9 samples.

Results

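Heat shock proteins and molecular chaperones were followed in C2C12 cells after knockdown of either of a pair of RNA-binding proteins. Members were the genes whose annotated symbol starts with Hsp and a family letter or a digit, with Dnaj and the letter a, b or c, or is one of Cct2 to Cct8. The chaperones Hspa5, Hsp90b1, Dnajb9, Dnajb11 and Dnajc3 and the matrix proteoglycan gene Hspg2 were left out by the same rule. This gave 76 of the 22071 genes on the array, carried by 1205 probe sets. Of these genes, 64 had at least 3 probe sets above the filter on weak signals and were tested. The other 12, Dnajb3, Dnajb7, Dnajb8, Dnajb13, Dnajc5b, Dnajc5g, Dnajc22, Dnajc28, Hspa1a, Hspb3, Hspb7 and Hspb9, were not tested.

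C2C12 is an established mouse myoblast line, here grown in serum-containing medium. Cells received an siRNA against Cugbp1, an siRNA against Mbnl1 or a control siRNA, so that every group had been transfected, and total RNA was taken 48 h later. Each group had 3 whole-transcript exon arrays, 9 in all, and the labels do not say whether replicates were separate cultures. The p-values therefore cover the spread between arrays and no more, and that spread may be technical. Cugbp1 (current symbol Celf1) and Mbnl1 encode regulators of splicing and mRNA stability that are both disturbed in myotonic dystrophy. The comparisons ask which chaperone genes differ after each knockdown and which differ between the knockdowns.

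Chaperones bind unfolded or partly folded proteins and help them reach or regain their structure. HSP70 proteins do so in cycles of ATP hydrolysis that are started by J-domain proteins (the DNAJA, DNAJB and DNAJC families) and ended by exchange factors such as the HSP110 proteins, while HSP90, the CCT ring and mitochondrial HSP60 with its lid HSP10 act on later or special clients, and small heat shock proteins hold unfolded proteins in solution. Under heat or other protein damage, the factor HSF1 binds heat shock elements in the promoters of many of these genes, and muscle cells make several small heat shock proteins as part of their normal program.

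The heat shock element was searched for in the 250 bases before each RefSeq start as GAANNTTCNNGAA or its reverse complement TTCNNGAANNTTC, on both strands and with overlapping matches allowed. Of the 60 members with a promoter entry, 3 held it, or 5%, against 139 of all 27025 genes with an entry, or 0.514%. They were Dnajb6 and the neighbours Hspd1 and Hspe1, which encode HSP60 and HSP10 and are read outwards from a shared stretch of chromosome 1. Both stretches are shown because Hspd1 and Dnajb6 were called in opposite directions after Mbnl1 siRNA, while Hspe1 was not called. The sequences are from RefSeq, assembly GRCm38.p6, plus strand, with the bases of the matches in capitals. The first lies between the starts of Hspd1 and Hspe1 (chr1:55087933-55088147), and its 18 capital bases hold 2 overlapping matches. The second is the 250 bases before the start of Dnajb6 (chr5:29735648-29735897), with 1 match of 13 bases. A match only says that these letters are there. Imperfect or more distant elements were not searched for, so a member without a match may still hold one. Hspd1 and Hspe1 were each counted, although their matches lie in the stretch they share.
Hspd1 and Hspe1: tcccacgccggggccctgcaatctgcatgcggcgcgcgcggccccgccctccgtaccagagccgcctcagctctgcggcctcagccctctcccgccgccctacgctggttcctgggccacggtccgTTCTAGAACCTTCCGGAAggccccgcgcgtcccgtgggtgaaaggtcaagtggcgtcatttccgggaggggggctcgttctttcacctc
Dnajb6: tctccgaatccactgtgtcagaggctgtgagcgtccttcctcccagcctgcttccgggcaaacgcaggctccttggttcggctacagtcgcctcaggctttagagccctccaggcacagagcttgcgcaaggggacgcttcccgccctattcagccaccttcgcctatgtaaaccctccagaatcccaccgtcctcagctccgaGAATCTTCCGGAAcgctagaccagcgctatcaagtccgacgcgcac

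Gene values are log2 intensities, summarised over the kept probe sets of a gene, and all changes are differences of such values. Celf1 stood at 8.60, 8.60 and 8.81 after Cugbp1 siRNA, against 10.11, 10.14 and 10.14 after control siRNA, a fall to 36.4% of the control level. Mbnl1 stood at 10.05, 10.10 and 10.18 after Mbnl1 siRNA, against 11.47, 11.46 and 11.44 after control siRNA. Median intensities of whole arrays were 42.3 to 42.9 on the 6 siRNA arrays and 43.6 to 43.8 on the controls, without overlap. Of 9 myoblast markers 8 were tested. After Cugbp1 siRNA 3 were called higher and 0 lower, or 37.5% and 0%, where 26.0% and 12.7% of all tested genes were. After Mbnl1 siRNA 1 was called higher and 1 lower, or 12.5% each, where 26.9% and 14.6% of all were. Between the knockdowns 1 was called, higher after Cugbp1 siRNA, or 12.5%, where 4.27% of all were. Summed intensities were taken over all 9, from all probe sets without the filter. They were 14190 to 14480 after Cugbp1 siRNA, 13360 to 14720 after Mbnl1 siRNA and 13630 to 13870 in controls. Of 18 genes that myoblasts are not known to express, listed as a check of the signal floor, 11 passed the filter. In them 7 were called lower after Cugbp1 siRNA and 5 after Mbnl1 siRNA, none higher. That is 63.6% and 45.5% lower, where 12.7% and 14.6% of all tested genes were. Sums for this list covered its 16 annotated genes, again without the filter. These were 914.8 to 985.3 after Cugbp1 siRNA, 979.2 to 988.8 after Mbnl1 siRNA and 1061 to 1099 in controls. The part of these shifts in the results below was not tested. Whether the falls in the second list are a change of background signal was not tested either. For the myoblast markers, fewer cells cannot be told apart from less RNA per cell in such bulk RNA.

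A gene was called when limma, fitted to all 12646 tested genes, gave a Benjamini-Hochberg adjusted p under 0.05. After Cugbp1 siRNA, 13 of the 64 tested members rose and 3 fell, 25% in all, where 26.0% of all tested genes rose and 12.7% fell, 38.7% in all. After Mbnl1 siRNA, 14 members rose and 4 fell, 28.1% in all, where the shares of all genes were 26.9%, 14.6% and 41.5%. The median change of the members was 0.05 after Cugbp1 siRNA and 0.04 after Mbnl1 siRNA, equal at this precision to the medians over all tested genes, 0.05 and 0.04. Only Dnajc24 changed by more than 1.5-fold, and its direction turned with a stricter filter on weak probe sets. The members' shares lay below those of all genes, a difference that was not tested. Each array was also centred on its kept probe sets, a scaling chosen after seeing the data. Then 10 of the 64 members rose and 4 fell after Cugbp1 siRNA, where 19.6% and 15.6% of all genes did. After Mbnl1 siRNA 11 of the 64 rose and 6 fell, where 21.2% and 19.4% of all genes did. The 3 falls after Cugbp1 siRNA came to 1 without control replicate 1 or without Cugbp1 siRNA replicate 2. The comparisons with control use the same control arrays, so their values are given side by side and no overlap is drawn from them.

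**Figure D1:**
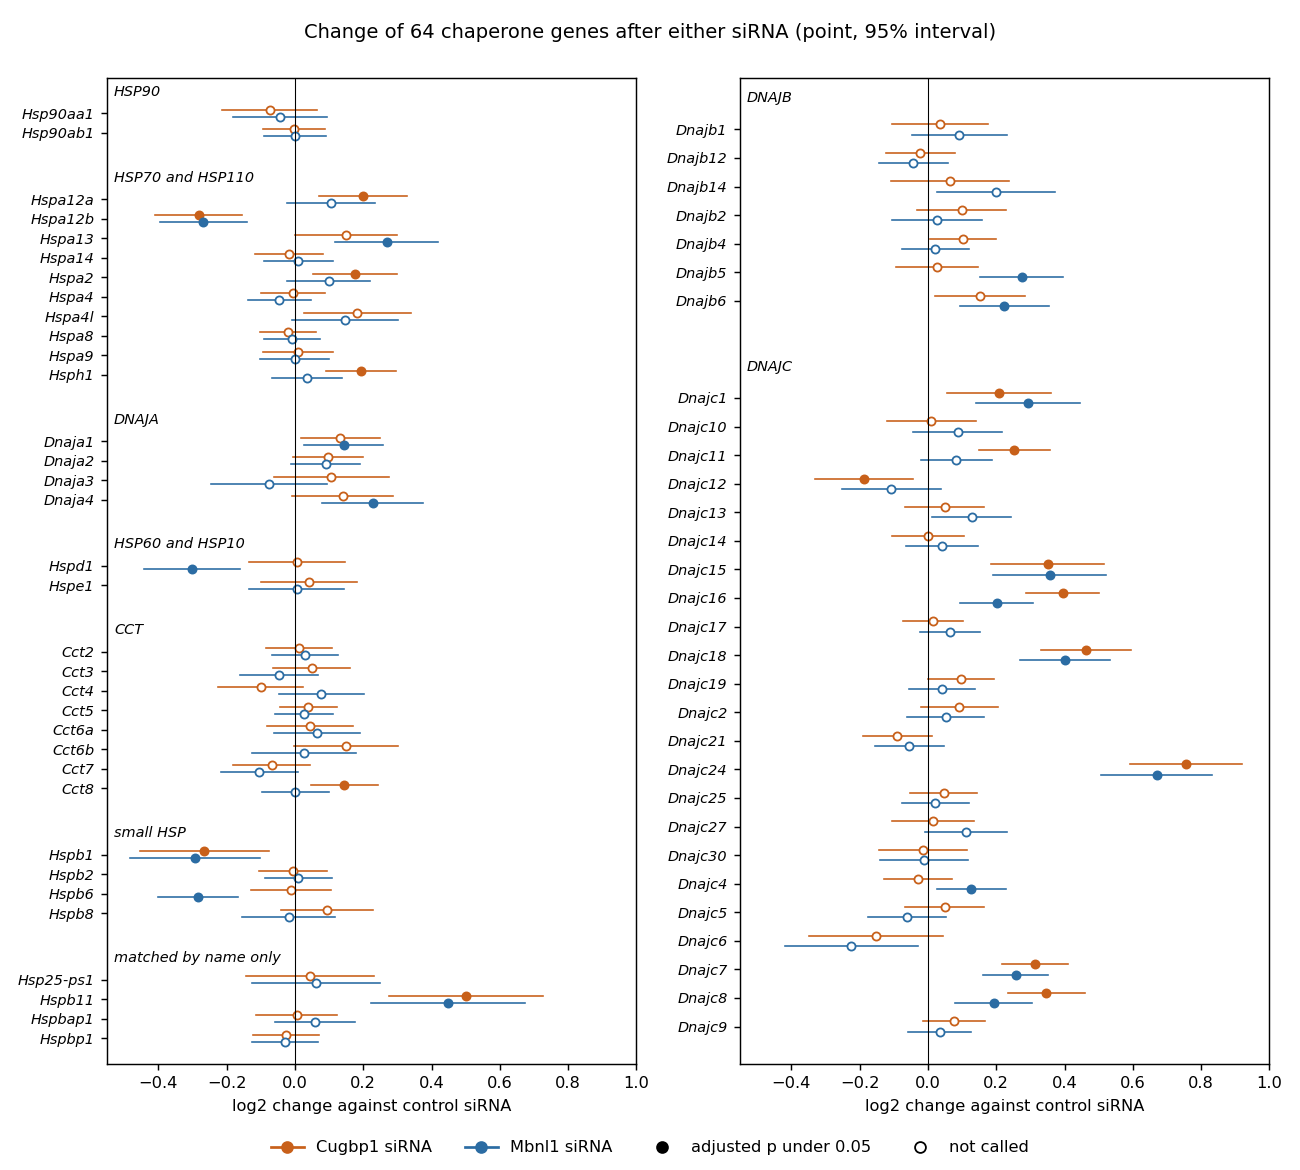
Log2 change of each tested member against control siRNA, after Cugbp1 siRNA (orange) and after Mbnl1 siRNA (blue), grouped by family, with points for the estimate and bars for the 95% interval of the limma fit on 3 arrays per group. Filled points are called. The HSP90 genes lie near 0. The DNAJC family has 8 of its 23 tested genes called above 0 after each siRNA, or 34.8%. Of all tested genes, 26.0% were called above 0 after Cugbp1 siRNA and 26.9% after Mbnl1 siRNA.

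Hspa8, Hspa9 and both tested HSP90 genes were not called in either comparison with control. Hspa8, the constitutive HSP70 (HSC70), stood at 13.42, 13.45 and 13.45 after Cugbp1 siRNA, at 13.45 on each array after Mbnl1 siRNA and at 13.46, 13.46 and 13.45 in controls. All its siRNA arrays lay below all its controls, but by little: its changes were -0.02 and -0.01, with 95% intervals of -0.10 to 0.06 and -0.09 to 0.07. Hsp90ab1, the constitutive HSP90, changed by -0.00 after Cugbp1 siRNA (interval -0.09 to 0.09) and by 0.00 after Mbnl1 siRNA (-0.09 to 0.09). Its heat-inducible relative Hsp90aa1 gave -0.07 (-0.21 to 0.06) and -0.04 (-0.18 to 0.09). Hspa9, the mitochondrial HSP70, gave 0.01 and -0.00. Each of these intervals excludes a change of 1.5-fold.

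Among the 10 tested HSP70 and HSP110 genes, 3 rose and 1 fell after Cugbp1 siRNA, and 1 rose and 1 fell after Mbnl1 siRNA. That is 40% and 20% called, against 38.7% and 41.5% of all tested genes. Hsph1, an HSP110 exchange factor that heat induces, stood at 9.47, 9.55 and 9.60 after Cugbp1 siRNA, at 9.35, 9.36 and 9.44 after Mbnl1 siRNA and at 9.35, 9.36 and 9.34 in controls. The Cugbp1 siRNA arrays lay above all others, and the Mbnl1 siRNA arrays overlapped the controls. Hsph1 rose by 0.19 after Cugbp1 siRNA (SE 0.05, limma adjusted p = 0.00983), with 24 of its 25 probe sets higher, and gave 0.03 after Mbnl1 siRNA (adjusted p = 0.575). The difference between the knockdowns, 0.16, was not called (adjusted p = 0.0598). The other HSP110 genes, Hspa4 and Hspa4l, were not called: Hspa4 gave -0.01 and -0.05, and Hspa4l gave 0.18 and 0.15 (adjusted p = 0.0619 and 0.116).

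Hspa12b, a divergent HSP70 known from endothelium, was the called HSP70 member that fell in both comparisons. It stood at 7.77, 7.80 and 7.69 after Cugbp1 siRNA, at 7.85, 7.67 and 7.80 after Mbnl1 siRNA and at 8.09, 7.98 and 8.05 in controls, and all siRNA arrays lay below all controls. It fell by 0.28 after Cugbp1 siRNA and by 0.27 after Mbnl1 siRNA (limma adjusted p = 0.00476 and 0.00484). Only 7 of its 17 probe sets passed the filter, and with all of them neither call was made (adjusted p = 0.107 and 0.174). The 11 tested genes that myoblasts are not known to express had median changes of -0.24 and -0.21. Whether the fall of Hspa12b is one of background signal was not tested. Its relative Hspa12a rose by 0.20 after Cugbp1 siRNA and gave 0.11 after Mbnl1 siRNA. The call was made under 15 of 21 alternatives and was lost, among others, without control replicate 1 or 3 or Cugbp1 siRNA replicate 2 or 3 (adjusted p of 0.0631 to 0.0794). Hspa13, an HSP70-like protein of the microsomes, stood at 9.77, 9.80 and 9.88 after Mbnl1 siRNA, against 9.50, 9.60 and 9.55 after control siRNA. Those groups did not overlap, and Hspa13 rose by 0.27 (SE 0.07, adjusted p = 0.0104), with 6 of 6 probe sets higher. After Cugbp1 siRNA it gave 0.15 (adjusted p = 0.102). Hspa2, best known from the testis, rose by 0.18 after Cugbp1 siRNA and gave 0.10 after Mbnl1 siRNA, a call made under 11 of 20 alternatives. It was lost without control replicate 2 or 3 or Cugbp1 siRNA replicate 1 or 2 (adjusted p of 0.0646 to 0.0857), and with the stricter filter the change was 0.10 (adjusted p = 0.108). Hspa14, which acts on the ribosome with Dnajc2, gave -0.02 and 0.01. Hspa1a, the HSP70 that heat induces most strongly, was below the filter on weak signals. Over all its probe sets Hspa1a averaged 5.72 ± 0.050 after Cugbp1 siRNA, 5.62 ± 0.12 after Mbnl1 siRNA and 5.66 ± 0.087 in controls (SD, n = 3 each), with overlapping groups.

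HSP60 differed between the knockdowns, and its lid was not called in any comparison. Hspd1 stood at 11.41, 11.58 and 11.60 after Cugbp1 siRNA, at 11.14, 11.20 and 11.33 after Mbnl1 siRNA and at 11.52, 11.53 and 11.53 in controls. Every Mbnl1 siRNA array lay below every other array, while the Cugbp1 siRNA arrays overlapped the controls. Hspd1 fell by 0.30 after Mbnl1 siRNA (SE 0.06, limma adjusted p = 0.00426) and gave 0.01 after Cugbp1 siRNA (adjusted p = 0.953). Cugbp1 siRNA minus Mbnl1 siRNA was 0.31 (95% interval 0.17 to 0.45, adjusted p = 0.0139), and 17 of 17 probe sets were higher after Cugbp1 siRNA. Leaving out Cugbp1 siRNA replicate 2, Mbnl1 siRNA replicate 1 or Mbnl1 siRNA replicate 2 kept the size, 0.26 to 0.30, but not the call between the knockdowns (adjusted p = 0.0552, 0.0600 and 0.0570). Hspe1, across the shared stretch printed above, stood at 9.52, 9.47 and 9.51 after Cugbp1 siRNA, at 9.48, 9.32 and 9.59 after Mbnl1 siRNA and at 9.47, 9.41 and 9.49 in controls, and the groups overlapped. Its change after Mbnl1 siRNA was 0.01 (-0.13 to 0.14), an interval that excludes a fall as large as the estimate for Hspd1. Hspe1 rests on 3 kept probe sets, of which 2 were higher and 1 was lower after Mbnl1 siRNA, and whether Hspd1 and Hspe1 differ in their change was not tested.

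**Figure D2:**
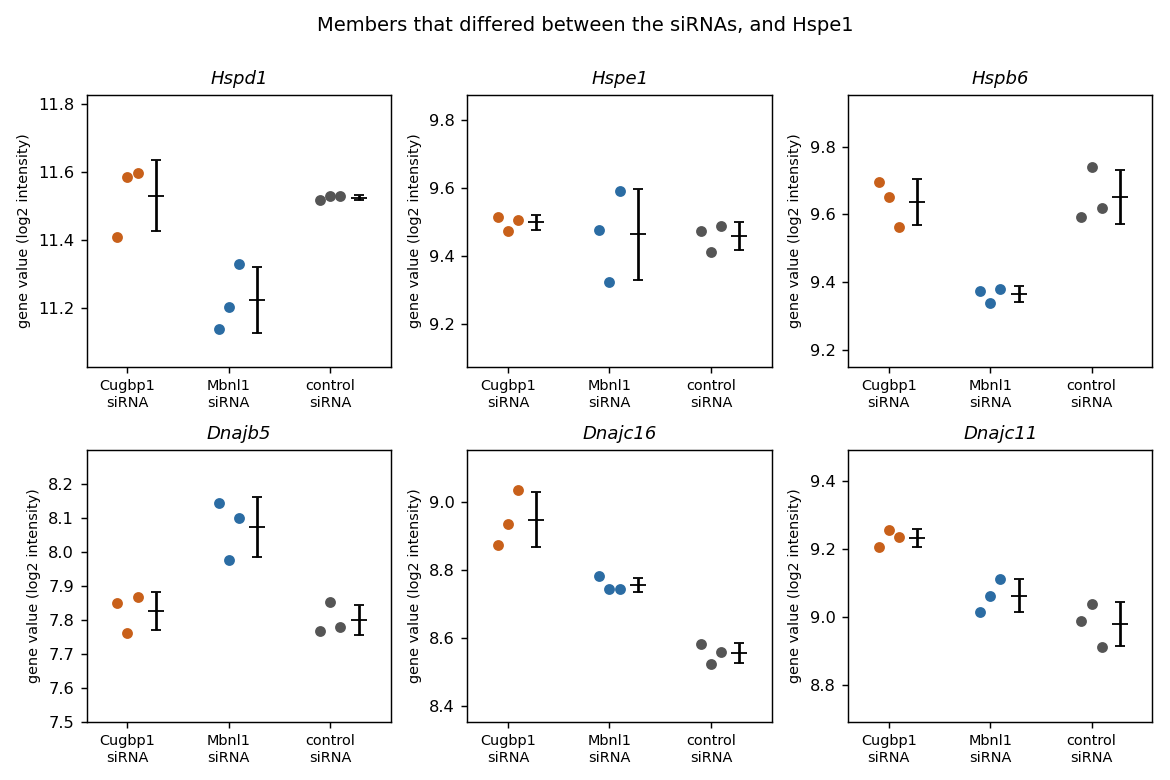
Gene value (log2 intensity) on each array for the 5 members called between the knockdowns and for Hspe1, after Cugbp1 siRNA (orange), Mbnl1 siRNA (blue) and control siRNA (grey), with the mean and SD of 3 arrays beside the points. Hspd1 and Hspb6 are lower on the 3 Mbnl1 siRNA arrays than on all others, Dnajb5 is higher on them, and Hspe1 overlaps in all groups. Axes do not start at 0.

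Between the knockdowns, 5 of 64 members were called, 7.81%, where 9.34% of all genes were. Cugbp1 siRNA was higher for 4 members, or 6.25%, against 4.27% of all genes, and lower for 1, or 1.56%, against 5.07%. Besides Hspd1 these were Hspb6, Dnajb5, Dnajc16 and Dnajc11, and none differed by as much as 1.5-fold. The 4 calls higher after Cugbp1 siRNA came to 6 without Cugbp1 siRNA replicate 1, to 2 without Cugbp1 siRNA replicate 3 or Mbnl1 siRNA replicate 3, and to 1 without Cugbp1 siRNA replicate 2 or Mbnl1 siRNA replicate 1 or 2. The median of Cugbp1 siRNA minus Mbnl1 siRNA was 0.01 over the members and 0.01 over all tested genes.

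Hspb6 (HSP20), a small heat shock protein abundant in muscle, had the lowest adjusted p among them. It stood at 9.70, 9.65 and 9.56 after Cugbp1 siRNA, at 9.38, 9.34 and 9.38 after Mbnl1 siRNA and at 9.59, 9.74 and 9.62 in controls. As for Hspd1, the 3 Mbnl1 siRNA arrays lay below all others and the Cugbp1 siRNA arrays overlapped the controls. Hspb6 fell by 0.28 after Mbnl1 siRNA (SE 0.05, limma adjusted p = 0.0023) and gave -0.01 after Cugbp1 siRNA. Cugbp1 siRNA minus Mbnl1 siRNA was 0.27 (0.16 to 0.39, adjusted p = 0.0104), with 6 of 6 probe sets higher, and it was called under each of the 21 alternatives tried, with values of 0.24 to 0.31.

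Of the other small heat shock proteins, Hspb1 (HSP25 in the mouse, which binds actin filaments) was called in both comparisons with control. Hspb1 stood at 12.44, 12.13 and 12.06 after Cugbp1 siRNA, at 12.22, 12.14 and 12.19 after Mbnl1 siRNA and at 12.46, 12.53 and 12.43 in controls. One Cugbp1 siRNA array lay within the controls, while the Mbnl1 siRNA arrays were all below them. Hspb1 fell by 0.27 after Cugbp1 siRNA (SE 0.09, limma adjusted p = 0.0331) and by 0.29 after Mbnl1 siRNA (adjusted p = 0.0202), with 10 of 11 probe sets lower in each. The first call was lost without Cugbp1 siRNA replicate 2 or 3 or without any 1 control, with adjusted p of 0.0576 to 0.115, and was made under 13 of 21 alternatives. The second was lost without control replicate 2 or Mbnl1 siRNA replicate 2 or 3, with adjusted p of 0.0536 to 0.0640, and was made under 17 of 21. Hspb2, a muscle protein that binds the myotonic dystrophy protein kinase, gave -0.01 and 0.01 (intervals -0.11 to 0.09 and -0.09 to 0.11). Hspb8, the partner of Bag3 in clearing damaged proteins, gave 0.09 and -0.02, and neither gene was called. The muscle small heat shock proteins Hspb3 and Hspb7 were below the filter, and over all their probe sets Hspb7 averaged 5.79 ± 0.065, 5.78 ± 0.14 and, in controls, 6.09 ± 0.16 (SD, n = 3 each), with no test made.

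The CCT ring, which folds actin and tubulin, was close to level. Of its 8 tested subunits, 1 was called after Cugbp1 siRNA and 0 after Mbnl1 siRNA by limma, the second also at an unadjusted p under 0.05. Called were thus 12.5% and 0%, against 38.7% and 41.5% of all tested genes, a difference that was not tested. Cct8 stood at 10.40, 10.51 and 10.52 after Cugbp1 siRNA, at 10.31, 10.36 and 10.33 after Mbnl1 siRNA and at 10.32, 10.34 and 10.34 in controls. It rose by 0.14 after Cugbp1 siRNA (SE 0.04, limma adjusted p = 0.0277), all arrays above the controls, and gave 0.00 after Mbnl1 siRNA. The call was made under 13 of 21 alternatives and was lost, among others, without any 1 control or without Cugbp1 siRNA replicate 2 or 3 (adjusted p of 0.0546 to 0.0895). After Cugbp1 siRNA and after Mbnl1 siRNA, Cct2 gave 0.01 and 0.03, Cct3 gave 0.05 and -0.05, and Cct4 gave -0.10 and 0.08. Cct5 gave 0.04 and 0.03, Cct6a gave 0.04 and 0.06, Cct7 gave -0.07 and -0.10, and Cct6b, the testis form, gave 0.15 and 0.03. Tcp1, the subunit whose symbol the rule does not match, gave -0.02 and -0.01. The median over the 8 subunits was 0.04 after Cugbp1 siRNA and 0.03 after Mbnl1 siRNA.

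J-domain proteins, which choose the clients of HSP70, made up 34 of the 64 tested members. Of them 8 rose and 1 fell after Cugbp1 siRNA, and 12 rose and 0 fell after Mbnl1 siRNA (limma; 1 lower at an unadjusted p under 0.05). Called were thus 26.5% and 35.3%, against 38.7% and 41.5% of all tested genes. Rises alone were 23.5% and 35.3%, against 26.0% and 26.9%, and falls alone 2.94% and 0%, against 12.7% and 14.6%. In the DNAJC family, a mixed group with tasks in many compartments, 8 of 23 rose after each siRNA, or 34.8%, and 1 fell, after Cugbp1 siRNA. Of all tested genes, 26.0% rose after Cugbp1 siRNA and 26.9% after Mbnl1 siRNA. With 39.1% and 34.8% called in either direction, the family lay near the shares of all genes. None of the 4 DNAJA and 7 DNAJB genes was called after Cugbp1 siRNA, although 1 and 2 of them were higher at an unadjusted p under 0.05, and 2 of each rose after Mbnl1 siRNA. Whether the families differ from each other was not tested.

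Dnajc7, which binds HSP70 and HSP90 at once through its repeats, stood at 9.99, 10.01 and 10.08 after Cugbp1 siRNA, at 9.94, 10.00 and 9.96 after Mbnl1 siRNA and at 9.70, 9.75 and 9.69 in controls. All siRNA arrays lay above all controls, and Dnajc7 rose by 0.31 and 0.26 (SE 0.04 each, limma adjusted p = 0.000822 and 0.00135), with 15 of 16 probe sets higher in each. Dnajc15, a mitochondrial protein that restrains the respiratory chain in mice, stood at 9.61, 9.73 and 9.70 after Cugbp1 siRNA, at 9.73, 9.62 and 9.72 after Mbnl1 siRNA and at 9.34, 9.17 and 9.49 in controls. The siRNA arrays again lay above the controls, which spread more widely, and Dnajc15 rose by 0.35 and 0.36 (adjusted p = 0.00569 and 0.00426). Dnajc18, a membrane protein of the endoplasmic reticulum, stood at 8.13, 8.17 and 8.07 after Cugbp1 siRNA, at 8.01, 8.04 and 8.15 after Mbnl1 siRNA and at 7.72, 7.72 and 7.56 in controls. It rose by 0.46 and 0.40 (adjusted p = 0.000614 and 0.000759), with 6 of 6 kept probe sets higher in each, out of 10. The least raised, probe set 4446840, had a control mean of 9.26 and rose by 0.17 and 0.07. After Mbnl1 siRNA it departed from the gene by -0.33 (limma adjusted p = 0.0484). Both calls for Dnajc18 were made under each of 20 alternatives. Dnajc8, found with splicing complexes, stood at 8.92, 8.91 and 8.93 after Cugbp1 siRNA, at 8.75, 8.74 and 8.81 after Mbnl1 siRNA and at 8.47, 8.59 and 8.65 in controls. It rose by 0.35 and 0.19 (adjusted p = 0.00102 and 0.0128), and the difference between the knockdowns, 0.15, was not called (adjusted p = 0.0894). After Mbnl1 siRNA, Dnajc8 was called under 16 of 21 alternatives. The call was lost without Mbnl1 siRNA replicate 3 (adjusted p = 0.0535), with repeated quantile normalisation, cyclic loess or centring on the kept probe sets (0.0526 to 0.0571), and at a level of at least 9 (0.14, adjusted p = 0.0759).

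Dnajc1, a reticulum membrane protein that binds translating ribosomes, rose by 0.21 after Cugbp1 siRNA and by 0.29 after Mbnl1 siRNA (limma adjusted p = 0.0362 and 0.00754), with all siRNA arrays above the controls. The first of these calls was made under only 9 of 20 alternatives. It was lost without control replicate 2 (adjusted p = 0.116), Cugbp1 siRNA replicate 2 (0.0689) or Cugbp1 siRNA replicate 3 (0.125). It was also lost under repeated quantile normalisation and 6 other settings (0.0507 to 0.0745), and with the stricter filter, where the change was 0.11 (adjusted p = 0.115). Dnajc12, a partner of the aromatic amino acid hydroxylases, fell by 0.19 after Cugbp1 siRNA (adjusted p = 0.0433) and gave -0.11 after Mbnl1 siRNA, on 3 kept probe sets. That call was lost under 12 of 19 alternatives, among them 7 of the 9 that left out an array, and with no filter the change was -0.03. Dnajc4 rose by 0.13 after Mbnl1 siRNA (adjusted p = 0.0448), a call lost under 15 of 21 alternatives, among them 7 that left out an array, and gave -0.03 after Cugbp1 siRNA. Dnajc4 and Dnajc12 are named here after their values were seen.

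Dnajc16 and Dnajc11 were higher after Cugbp1 siRNA than after Mbnl1 siRNA. Dnajc16, of the endoplasmic reticulum, stood at 8.87, 8.94 and 9.04 after Cugbp1 siRNA, at 8.78, 8.74 and 8.74 after Mbnl1 siRNA and at 8.58, 8.52 and 8.56 in controls. The groups did not overlap, in that order, and Dnajc16 rose by 0.39 after Cugbp1 siRNA and by 0.20 after Mbnl1 siRNA (limma adjusted p = 0.000506 and 0.00823). The difference between the knockdowns was 0.19 (0.09 to 0.30, adjusted p = 0.0337), with 15 of 17 probe sets higher. Dnajc11, which works with the complex that shapes mitochondrial cristae, stood at 9.21, 9.26 and 9.24 after Cugbp1 siRNA, at 9.01, 9.06 and 9.11 after Mbnl1 siRNA and at 8.99, 9.04 and 8.91 in controls. Cugbp1 siRNA arrays lay above all others, and the rest overlapped. Dnajc11 rose by 0.25 after Cugbp1 siRNA (adjusted p = 0.00312) and gave 0.08 after Mbnl1 siRNA (adjusted p = 0.18), and its difference between the knockdowns was 0.17 (0.07 to 0.27, adjusted p = 0.0493). Both differences lay close to the threshold and were called under 11 of 21 alternatives for Dnajc16 and under 5 of 21 for Dnajc11. The one for Dnajc16 was lost without control replicate 3, Cugbp1 siRNA replicate 2 or 3 or any 1 Mbnl1 siRNA array (adjusted p up to 0.106), and the one for Dnajc11 without any 1 array except control replicate 3 (adjusted p up to 0.169).

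Dnajb5, a class B J-domain protein, ran the other way. It stood at 7.85, 7.76 and 7.87 after Cugbp1 siRNA, at 8.15, 7.98 and 8.10 after Mbnl1 siRNA and at 7.77, 7.85 and 7.78 in controls. The Mbnl1 siRNA arrays lay above all others, and the rest overlapped. Dnajb5 rose by 0.27 after Mbnl1 siRNA (SE 0.05, limma adjusted p = 0.0033) and gave 0.03 after Cugbp1 siRNA, and Cugbp1 siRNA minus Mbnl1 siRNA was -0.25 (-0.37 to -0.13, adjusted p = 0.0191). With the stricter filter the change after Mbnl1 siRNA was 0.15 and was not called (adjusted p = 0.0617). Of its 16 probe sets 8 were kept, and 6 of these were lower after Cugbp1 siRNA than after Mbnl1 siRNA. Probe set 4952470 gave the largest changes, 0.85 after Mbnl1 siRNA and -0.75 between the knockdowns. Its control mean of 6.90 lay below the filter level, and it passed through the siRNA arrays. After Mbnl1 siRNA it departed from the gene by 0.57, 5055986 by -0.63 and 5412164 by -0.58 (limma adjusted p = 0.0123, 0.00916 and 0.0196). The call between the knockdowns was lost with no filter on weak probe sets (-0.16, adjusted p = 0.11) and without Cugbp1 siRNA replicate 2, Mbnl1 siRNA replicate 1 or Mbnl1 siRNA replicate 3 (adjusted p = 0.0724, 0.0789 and 0.0739).

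Other muscle-linked and heat-inducible J-domain genes gave changes of at most 0.23. Dnajb6, which keeps aggregation-prone proteins soluble and is mutated in a limb-girdle muscular dystrophy in humans, stood at 11.12, 11.22 and 11.21 after Cugbp1 siRNA, at 11.22, 11.23 and 11.31 after Mbnl1 siRNA and at 11.14, 10.92 and 11.02 in controls. All Mbnl1 siRNA arrays lay above the controls, and Dnajb6 rose by 0.22 after Mbnl1 siRNA (SE 0.06, limma adjusted p = 0.013). That call was lost without Mbnl1 siRNA replicate 3 (adjusted p = 0.0545). After Cugbp1 siRNA the change was 0.15 (adjusted p = 0.063), with 20 of 25 probe sets higher in each comparison. Dnajb1, the heat-induced partner of HSP70, gave 0.04 after Cugbp1 siRNA and 0.09 after Mbnl1 siRNA, Dnajb4 gave 0.10 and 0.02, and Dnajb2 gave 0.10 and 0.03, none of them called. Dnaja1, an HSP70 partner, gave 0.13 and 0.14, and the second was called (adjusted p = 0.0492), but not under 14 of 21 alternatives, which include leaving out control replicate 2 or 3, Cugbp1 siRNA replicate 3 or any 1 Mbnl1 siRNA array. Dnaja4 gave 0.14 and rose by 0.23 after Mbnl1 siRNA (adjusted p = 0.0209), where 1 control array overlapped the siRNA arrays. The call for Dnaja4 was lost without control replicate 1 or 2 or Mbnl1 siRNA replicate 1 or 2 (adjusted p of 0.0625 to 0.0711).

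The largest change of any member was that of Dnajc24, which acts in the synthesis of diphthamide on a translation elongation factor, and it did not hold across the gene. Dnajc24 stood at 8.39, 8.23 and 8.16 after Cugbp1 siRNA, at 8.12, 8.13 and 8.26 after Mbnl1 siRNA and at 7.44, 7.44 and 7.63 in controls, and all siRNA arrays lay above all controls. Its summary rose by 0.76 and 0.67 (SE 0.07 each, limma adjusted p = 0.000161 and 0.000152), 1.69-fold and 1.59-fold. Only 8 of its 19 probe sets passed the filter. The 6 of them that were weakest in controls were higher after each siRNA, by up to 1.37 after Cugbp1 siRNA and 1.33 after Mbnl1 siRNA. Those with control means of 6.33, 6.85 and 6.90 lay below the filter level in controls and passed only through the siRNA arrays. The one at 6.85 gave both of the largest rises. The 2 brightest were lower, by 0.51 and 0.06 after Cugbp1 siRNA and by 0.53 and 0.23 after Mbnl1 siRNA. With the stricter filter, which keeps only brighter probe sets, the changes of Dnajc24 were -0.06 and -0.14 (adjusted p = 0.472 and 0.104).

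**Figure D3:**
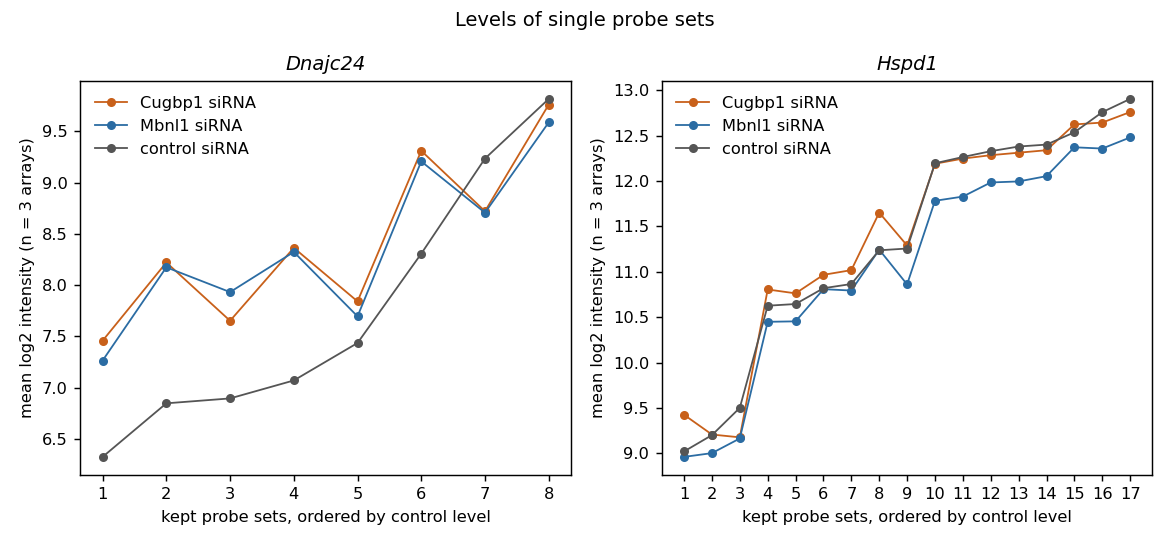
Mean log2 intensity of each kept probe set of Dnajc24 (left) and Hspd1 (right), ordered by the level in controls, after Cugbp1 siRNA (orange), Mbnl1 siRNA (blue) and control siRNA (grey), 3 arrays each. In Dnajc24 the 6 weaker probe sets are above control and the 2 brightest below it after either siRNA; in Hspd1 the Mbnl1 siRNA line lies below the Cugbp1 siRNA line at all 17 probe sets.

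The same held for Hspb11, which is named as a small heat shock protein but is a part of the transport machinery of cilia. Its summary of 5 kept probe sets stood at 9.67, 9.78 and 9.71 after Cugbp1 siRNA, at 9.67, 9.60 and 9.74 after Mbnl1 siRNA and at 9.04, 9.50 and 9.12 in controls. It rose by 0.50 and 0.45 (limma adjusted p = 0.00467 and 0.00634), with 1 control far above the other 2. Its brightest probe set was lower by 0.24 after Cugbp1 siRNA and by 0.40 after Mbnl1 siRNA, and over probe sets with a log2 level of at least 9 the changes were 0.07 and -0.11, neither called. The other members matched by name only, the HSP70 regulator Hspbp1, the HSPB1-associated Hspbap1 and the pseudogene Hsp25-ps1, were not called in any comparison, with changes against control of -0.03 to 0.06. Probes for Hsp25-ps1 may also detect Hspb1 RNA, which was not tested.

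Changes against control moved with signal level throughout the members. For member probe sets with a mean level of 8 to 9, the median change was 0.18 after Cugbp1 siRNA and 0.15 after Mbnl1 siRNA, and 118 and 121 of 152 were higher. For the 259 member probe sets at 11 or above, the medians were -0.02 and -0.02, and 120 and 117 were higher. Over all tested genes the medians ran the same way, with 0.13 and 0.13 at a level of 8 to 9 and 0.02 and 0.01 at 11 or above. Between the knockdowns the member medians lay between -0.01 and 0.04 in every level class. The part of signal level in the calls was not tested.

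**Figure D4:**
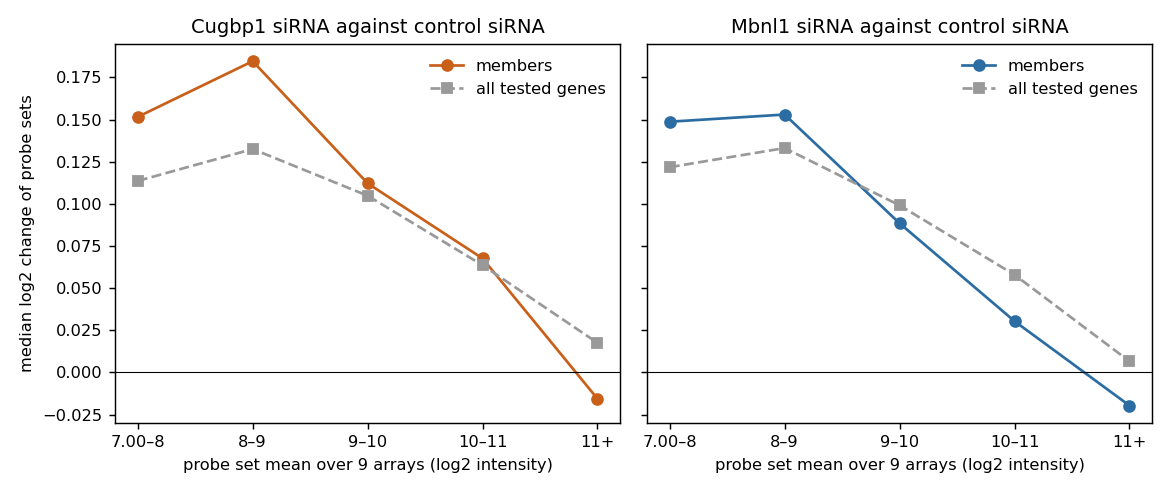
Median log2 change against control siRNA of kept probe sets in 5 classes of mean log2 intensity over the 9 arrays, for members (coloured) and for all tested genes (grey, dashed), after Cugbp1 siRNA (left) and Mbnl1 siRNA (right). In both panels the median falls towards bright probe sets, for members to -0.02 at 11 and above.

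Exon arrays also allow single probe sets to be set against their gene. Among 883 probe sets of 60 members, 19 departed from their gene after Cugbp1 siRNA, or 2.15%, where 3.75% of all 158713 probe sets did (limma on probe set minus gene value, adjusted p under 0.05). After Mbnl1 siRNA 53 departed, or 6%, against 6.98%, and 15 probe sets were called in both comparisons, which share their controls. Between the knockdowns 0 member probe sets were called by this test, with 38 at an unadjusted p under 0.05 and 4 by diffSplice, against 0.0277% of all probe sets. Counts against control turned on single arrays: after Cugbp1 siRNA they ran from 7 without control replicate 3 to 27 without control replicate 1, and were 8 without Cugbp1 siRNA replicate 3 and 11 without Cugbp1 siRNA replicate 2. After Mbnl1 siRNA they were 11 without Mbnl1 siRNA replicate 3, 20 and 22 without Mbnl1 siRNA replicates 1 and 2, 21 and 27 without control replicates 3 and 2, and 57 without control replicate 1. Departures upwards lay at lower levels than departures downwards: the median levels were 8.27 and 9.72 after Cugbp1 siRNA and 8.16 and 9.81 after Mbnl1 siRNA.

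The departures lay in 14 members after Cugbp1 siRNA and in 31 after Mbnl1 siRNA, and the number given with each gene here is the identifier of its probe set. The largest departure was that of 5544041 of Dnajc24, by -1.27 after Cugbp1 siRNA and -1.20 after Mbnl1 siRNA (limma adjusted p = 0.00179 and 0.00115). Another of Dnajc24, 4356045, departed by -0.81 and -0.90 (adjusted p = 0.00329 and 0.00128), and 4325780 of Hspb11 by -0.74 and -0.85 (adjusted p = 0.00549 and 0.00195). These are the 2 brightest probe sets of Dnajc24 and the brightest of Hspb11. Their own changes after Cugbp1 and Mbnl1 siRNA were smaller. They were -0.51 and -0.53 for 5544041, -0.06 and -0.23 for 4356045, and -0.24 and -0.40 for 4325780. The rest of each departure is the rise of the gene value. In Dnajc2, a J-domain protein of the ribosome, probe set 5152534 departed by -0.51 after Cugbp1 siRNA and by -0.43 after Mbnl1 siRNA (limma adjusted p = 0.00567 and 0.00699), while the gene itself was not called. In Hspa12a, probe set 5563602 departed by -0.48 and -0.43 (adjusted p = 0.00505 and 0.00449). In Dnajc27, probe set 5046160 departed by -0.49 and -0.68 (adjusted p = 0.0173 and 0.00288), and in Dnajc11 probe set 4394778 by -0.83 and -0.55 (adjusted p = 0.00701 and 0.0239). Upward departures included 4684830 of Dnaja1, by 0.62 and 0.87 (adjusted p = 0.0206 and 0.00334), and 5491091 of Dnajc19, a part of the mitochondrial import motor, by 1.09 and 0.86 (adjusted p = 0.00764 and 0.0135). In Dnajc7, 4643304 departed by 0.73 and 0.86 (adjusted p = 0.0329 and 0.0124) and 5023441 by 0.95 after Mbnl1 siRNA (adjusted p = 0.0314). In Dnajc13, 4942375 departed by 0.90 after Mbnl1 siRNA (adjusted p = 0.0277). The probe sets named here of Dnajc19, Dnajc7 and Dnajc13 had means of 6.64 to 6.97 in controls, below the filter level, and passed through the siRNA arrays. All departures given with values were chosen after they were seen. In Hsp90aa1, 5430481 departed by 0.29 after Cugbp1 siRNA and 4514960 by 0.42 after Mbnl1 siRNA (adjusted p = 0.0457 and 0.0437). The other members with a called probe set were Cct4, Cct7, Dnaja2, Dnaja4, Dnajb2, Dnajb5, Dnajc1, Dnajc5, Dnajc8, Dnajc9, Dnajc10, Dnajc15, Dnajc17, Dnajc18, Dnajc21, Dnajc25, Dnajc30, Hspa4, Hspa4l, Hspa14 and Hsph1. All departures called above the gene lay between 0.28 and 1.09 and all called below it between -1.27 and -0.23. No exon is named, since the position of the probe sets was not used here.

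Partners and regulators of the chaperones were read from a list of 67 genes, 63 of them tested. After Cugbp1 siRNA 20 rose and 0 fell, or 31.7% called, and after Mbnl1 siRNA 15 rose and 0 fell, or 23.8%. Of all tested genes 38.7% and 41.5% were called. By direction, 26.0% and 26.9% of all tested genes rose, and 12.7% and 14.6% fell. At an unadjusted p under 0.05, 1 and 3 of the list were lower. Without control replicate 1 the count that rose after Cugbp1 siRNA was 13. The heat shock factors and their partners, 6 genes, held 0 calls by limma in either comparison, with 1 and 2 at an unadjusted p under 0.05: Hsf1 gave 0.05 after Cugbp1 siRNA and -0.01 after Mbnl1 siRNA, and Hsf2 gave 0.09 and 0.13. Bag3, an exchange factor that HSF1 induces, gave 0.16 and -0.04, and Cryab, the small heat shock protein alphaB-crystallin, gave -0.09 and -0.01.

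The partners that rose most after Cugbp1 siRNA were Rpap3, of an HSP90 adaptor complex, by 0.44, Chordc1, an HSP90 co-chaperone, by 0.41, and St13, an HSP70 stabiliser, by 0.33. Next were Tomm70a (0.30), which receives chaperone-bound proteins at mitochondria, Bag5 (0.30), Ttc4 (0.29), the prefoldin subunit Pfdn1 (0.28) and the HSP90 co-chaperone Ptges3 (0.24). After Mbnl1 siRNA the largest were Hscb, which serves iron-sulphur cluster assembly, by 0.53, St13 by 0.36 and the HSP90 activator relative Ahsa2 by 0.35. Fnip2 (0.30), Chordc1 (0.29), Bag5 (0.27), Tomm70a (0.25) and Fnip1 (0.25) followed. Between the knockdowns Cugbp1 siRNA was higher for Rpap3, by 0.21 (limma adjusted p = 0.0496), and lower for Hscb, at -0.40 (adjusted p = 0.00219). The call for Rpap3 was lost without any 1 array other than Cugbp1 siRNA replicate 1, with adjusted p of 0.0671 to 0.139. Hscb was called in every alternative but the one without the filter (-0.18, adjusted p = 0.315), where it could be tested.

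Of the 5 chaperones of the endoplasmic reticulum left out by the rule, 2 were called after each siRNA, or 40%. That lay near the shares of all tested genes, 38.7% after Cugbp1 siRNA and 41.5% after Mbnl1 siRNA. Whether the 5 differ from each other was not tested. The J-domain genes Dnajb9 and Dnajb11 rose by 0.20 and 0.26 after Cugbp1 siRNA (limma adjusted p = 0.00933 and 0.0133) and by 0.26 and 0.22 after Mbnl1 siRNA (adjusted p = 0.00224 and 0.0249). Hspa5, the reticulum's HSP70, gave 0.08 and 0.02, Hsp90b1 gave -0.02 and 0.05, and Dnajc3 gave 0.07 and 0.12, and none of them was called.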

How the data were processed

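Members and gene lists were chosen with earlier results of these data known. The authors deposited an intensity for each of 1195555 probe sets on each of 9 arrays, on a linear scale, made with RMA in Affymetrix Expression Console with build mm9, per the submitters' processing notes. Their versions and options are not given in the labels or headers used. Per the labels, 100 ng of total RNA was labelled per array. RMA scales arrays alike, so a shift of most genes would not show, and low intensities are compressed.

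Values were log2-transformed. Groups came from the sample titles. Probe sets with exactly 1 symbol in the platform annotation were named (316997), and all 76 member symbols were current in RefSeq. Probe sets were kept at a mean over the 9 arrays at or above the 75th percentile (log2 6.997), and genes with at least 3 were summarised by Tukey median polish. limma 3.58.1 in R 4.3.3 (with data.table, version 1.17.8) fitted a mean per group over all 9 arrays, with eBayes and Benjamini-Hochberg adjustment over 12646 genes. Single probe sets, in genes with at least 4, were tested as probe set minus gene value with a mean-variance trend, and with diffSplice as an alternative. Both steps were run on simulated data. Those data had normal errors and no trend of change with signal level, so they do not bear on such a trend. Arrays have no depth, and their number limits the precision.

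Named with values were the tested HSP90, HSP60, HSP10, HSP70, HSP110, small HSP and CCT members. Of the J-domain members, these were the 8 largest called changes per comparison, those called between the siRNAs and heat-inducible or muscle-linked ones. Members with a called probe set were all named, with values for departures picked after they were seen. Of the partner list the 8 largest called changes were given, and Hsf1, Hsf2, Bag3, Cryab and Tcp1. Alternatives changed the scaling, the filter, the summary, the samples in the fit, the variance model, the replicate block and each array in turn.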

Additional observations from a re-analysis of the deposited data

Results flagged for a closer look

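The contrast of each siRNA with control differed between the siRNAs, by limma's test of the difference, for 5 members. Cugbp1 siRNA minus Mbnl1 siRNA was 0.31 for Hspd1 (adjusted p = 0.0139), 0.27 for Hspb6 (0.0104), -0.25 for Dnajb5 (0.0191), 0.19 for Dnajc16 (0.0337) and 0.17 for Dnajc11 (0.0493), on the log2 scale with 3 arrays per group. In this comparison 9.34% of all genes were called. In each of the 5, the 3 arrays of Cugbp1 siRNA and the 3 of Mbnl1 siRNA did not overlap. The 5 were picked by a test on these same arrays, so this adds no support. Uncalled members such as Cct4, Cct8 and Dnajc8 did not overlap either, and the share of all genes without overlap is not given here.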

How the results depend on the processing

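Up to 21 alternatives were tried per gene. Of them, cyclic loess, centring on the kept probe sets and keeping only probe sets at a log2 level of at least 9, were chosen after seeing the data. Of the members' calls, 7 of 16 after Cugbp1 siRNA and 8 of 18 after Mbnl1 siRNA held wherever the gene was tested. Between the siRNAs 1 of 5 did. The members' medians moved by less than the spread of arrays within groups, 0.043. That spread is about as large as the medians, so it cannot show them to be stable. After Cugbp1 and Mbnl1 siRNA the medians, 0.045 and 0.037, came to 0.020 and 0.0015 with centring on the kept probe sets. With arrays centred on their median they were 0.078 and 0.074, and at a level of at least 9 they were 0.033 and 0.0020. Direction turned with the stricter filter for Dnajc24 (-0.063 and -0.14 after Cugbp1 and Mbnl1 siRNA), for Dnajc17 (-0.23 and -0.19, both called, against 0.02 and 0.07) and for Tomm34 after Mbnl1 siRNA (0.13, against -0.01). It turned at a level of at least 9 for Hspb11 after Mbnl1 siRNA (-0.11). Counts are given here as those higher and then those lower. Members called after Cugbp1 siRNA, 13 and 3, came to 8 higher at a level of at least 9, to 0 lower with no filter and to 1 lower in a fit of only the 2 groups compared. The 14 members higher after Mbnl1 siRNA came to 9 with the stricter filter, 23 with the mean of probe sets and 5 at a level of at least 9. Between the siRNAs the 4 higher came to 2 with no filter, 7 with the stricter filter, 2 with at least 1 probe set per gene, 2 in a fit of only the 2 groups and 2 with the replicate block. The 1 lower came to 2 with arrays centred on their median, 0 with no filter, 2 with the stricter filter, 3 with a variance trend and 2 at a level of at least 9. Departing probe sets came to 51, 90 and 4 with diffSplice, against 19, 53 and 0, and to 30 after Mbnl1 siRNA at a level of at least 9. In the partner list, the 0 lower after Cugbp1 siRNA came to 3 with the stricter filter, 2 at a level of at least 9, and 1 with at least 1 probe set per gene, with the replicate block, with cyclic loess and with centring on the kept probe sets. The 0 lower after Mbnl1 siRNA came to 3 with repeated quantile normalisation, with cyclic loess and with centring on the kept probe sets, to 2 with the stricter filter and at a level of at least 9, and to 1 with no filter, with the mean of probe sets and with a variance trend, and the 15 higher came to 8 at a level of at least 9. Between the siRNAs the 1 higher came to 6 with the stricter filter, 5 at a level of at least 9, 4 with a variance trend, 2 with the mean of probe sets, and 0 with no filter, with at least 1 probe set per gene, in a fit of only the 2 groups and with the replicate block. The 1 lower came to 0 with no filter and at a level of at least 9. Leaving out each array in turn gave 1 to 2 members lower after Cugbp1 siRNA, 1 to 6 higher and 0 to 2 lower between the siRNAs, 7 to 27 and 11 to 57 departing probe sets, and partner counts of 13 to 24 higher and 0 to 1 lower after Cugbp1 siRNA, 0 to 2 lower after Mbnl1 siRNA, and 0 to 2 higher and 1 to 2 lower between the siRNAs. A group left with 2 arrays is then assumed to vary like the other groups. The replicate numbers are shared by the groups, but same-numbered arrays correlated by -0.10 to 0.12 and 5 of 9 arrays correlated best with their own number, so they were not taken to pair the samples. Except where a setting itself changes which probe sets, genes or arrays enter, the cause of these changes was not tested.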
